A study of Homo sapiens with 20 samples.

Results

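The regions described here were the cohesin peaks that lie on the loose pieces of the hg38 reference, the sequences whose names start with chrUn_ or end in _random. A chrUn piece has no known chromosome, and a _random piece has a chromosome but no position on it. Members were taken by name from 6 deposited peak lists, and 413 peaks of 188806 in all met the rule. They fell on 57 contigs, 32 of the 127 chrUn and 25 of the 42 random ones. The study mapped RAD21, SA1 and SA2 by chromatin immunoprecipitation sequencing in 2 human cell lines. CHM13 is an hTERT-immortalised line from a complete hydatidiform mole, a placental growth whose genome comes from sperm alone, and RPE-1 is an hTERT-immortalised retinal pigment epithelial line. Each CHM13 group (Rad21, SA1, SA2) held 3 libraries and each RPE-1 group 2, none of them with a labelled drug treatment or genetic change beyond hTERT, and the authors merged the replicates of a group into 1 list. Input libraries of total chromatin (tc), 3 of CHM13 and 2 of RPE-1, were also part of the study and were not used here. Rad21 was pulled down with ab992 in CHM13 and with ab154769 in RPE-1, whereas SA1 (A302-579A) and SA2 (A302-580A) used the same antibodies in both, so cell line and RAD21 antibody cannot be told apart.

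Cohesin is a ring that holds DNA strands together. RAD21 is the subunit that closes the ring, and SA1 and SA2 are alternative subunits that bind RAD21, so each ring carries one or the other. Along chromosome arms the complex is often found where CTCF, a zinc-finger protein that stops sliding rings, is bound. The unplaced contigs are rich in sequence that assemblers cannot place because it is repeated: centromeric alpha satellite, which is built from monomers about as long as a nucleosome repeat and often carries the box bound by the centromere protein CENP-B; the CATTC-based satellites of pericentromeres; human satellite 1, an AT-rich repeat; and ribosomal DNA of the short arms of acrocentric chromosomes.

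The stretches that carry the main contrasts are given first, 5′ to 3′ from hg38, on the plus strand unless stated. The first pair shows alpha satellite of one contig under a peak with RAD21 and under a peak without it, with the CENP-B box (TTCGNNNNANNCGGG) in capitals. They are chrUn_GL000226v1:963-1262 and chrUn_GL000226v1:8057-8333.
Alpha satellite with RAD21: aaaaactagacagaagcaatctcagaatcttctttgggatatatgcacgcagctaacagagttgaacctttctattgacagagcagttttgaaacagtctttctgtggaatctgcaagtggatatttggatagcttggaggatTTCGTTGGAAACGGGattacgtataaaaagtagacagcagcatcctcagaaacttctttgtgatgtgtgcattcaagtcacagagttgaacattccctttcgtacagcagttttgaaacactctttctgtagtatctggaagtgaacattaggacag
Alpha satellite without RAD21: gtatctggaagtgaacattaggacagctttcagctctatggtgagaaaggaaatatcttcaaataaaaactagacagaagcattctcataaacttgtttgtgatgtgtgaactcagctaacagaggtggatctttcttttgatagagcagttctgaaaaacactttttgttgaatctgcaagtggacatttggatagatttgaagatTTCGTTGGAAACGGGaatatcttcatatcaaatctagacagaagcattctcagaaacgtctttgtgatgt

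The second pair shows CATTC-based satellite from a pair of contigs, one stretch under RAD21 peaks and one not, with CATTC and its reverse complement GAATG in capitals. The first, chrUn_KI270438v1:112095-112394, lay under peaks of all 6 lists, and the second, chr1_KI270709v1_random:17174-17473, under CHM13 SA1 and SA2 peaks only.
KI270438 in all 6 lists: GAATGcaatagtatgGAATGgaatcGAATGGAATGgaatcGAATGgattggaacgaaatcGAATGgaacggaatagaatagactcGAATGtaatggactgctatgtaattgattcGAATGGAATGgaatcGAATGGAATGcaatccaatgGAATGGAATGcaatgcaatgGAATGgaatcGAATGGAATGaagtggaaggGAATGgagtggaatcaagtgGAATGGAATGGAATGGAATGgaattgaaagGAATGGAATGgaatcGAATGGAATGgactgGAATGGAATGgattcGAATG
KI270709 in SA1 and SA2 only: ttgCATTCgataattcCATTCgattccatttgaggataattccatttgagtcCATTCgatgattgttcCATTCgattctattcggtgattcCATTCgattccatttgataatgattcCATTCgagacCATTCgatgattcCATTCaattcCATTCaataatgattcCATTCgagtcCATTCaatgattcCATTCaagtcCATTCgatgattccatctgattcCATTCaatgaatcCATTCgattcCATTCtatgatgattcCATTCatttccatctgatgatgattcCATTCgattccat

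An AT-rich repeat was called for SA1 and SA2 in CHM13 and for RAD21 in RPE-1, but not for RAD21 in CHM13. In chrUn_KI270337v1:309-608, capitals mark the most frequent 12-base word, which came 6 times at a median spacing of 42 bases.
KI270337 AT-rich repeat: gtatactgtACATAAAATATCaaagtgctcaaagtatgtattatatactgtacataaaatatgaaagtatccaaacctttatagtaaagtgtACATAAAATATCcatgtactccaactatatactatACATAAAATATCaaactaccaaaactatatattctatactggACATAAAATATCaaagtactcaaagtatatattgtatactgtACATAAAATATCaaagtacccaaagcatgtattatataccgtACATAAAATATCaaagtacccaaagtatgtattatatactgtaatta

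The next 3 stretches are not satellite. In chrUn_GL000195v1:103351-103650, from a locus of all 6 lists, capitals mark a match to the CTCF core (CCNNNAGNNGGC, searched on both strands and chosen after the data were seen). In chrUn_GL000220v1:104397-104696, upstream of a ribosomal RNA copy, RAD21 peaks of both lines overlapped a wide CHM13 SA1 peak, and capitals mark the bases inside that SA1 peak. In chr1_KI270713v1_random:21793-22092, printed on the minus strand, capitals mark a copy of the U1 spliceosomal RNA gene under the widest CHM13 RAD21 peak on the contigs.
GL000195 with CTCF core: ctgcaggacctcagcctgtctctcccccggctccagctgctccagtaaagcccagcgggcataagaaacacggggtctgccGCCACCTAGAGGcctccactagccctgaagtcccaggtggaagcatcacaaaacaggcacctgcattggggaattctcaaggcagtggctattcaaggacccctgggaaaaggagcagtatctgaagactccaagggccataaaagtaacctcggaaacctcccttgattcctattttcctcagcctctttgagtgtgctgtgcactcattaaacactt
GL000220 ribosomal DNA: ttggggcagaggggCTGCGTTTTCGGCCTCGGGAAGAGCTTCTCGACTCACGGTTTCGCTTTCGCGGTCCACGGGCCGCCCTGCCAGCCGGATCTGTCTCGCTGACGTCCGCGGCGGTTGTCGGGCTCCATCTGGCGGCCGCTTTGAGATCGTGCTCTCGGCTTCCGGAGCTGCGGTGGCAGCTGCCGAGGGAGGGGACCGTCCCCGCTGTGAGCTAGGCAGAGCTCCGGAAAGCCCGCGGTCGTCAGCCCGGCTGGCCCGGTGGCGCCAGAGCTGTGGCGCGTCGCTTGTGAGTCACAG
KI270713 with U1: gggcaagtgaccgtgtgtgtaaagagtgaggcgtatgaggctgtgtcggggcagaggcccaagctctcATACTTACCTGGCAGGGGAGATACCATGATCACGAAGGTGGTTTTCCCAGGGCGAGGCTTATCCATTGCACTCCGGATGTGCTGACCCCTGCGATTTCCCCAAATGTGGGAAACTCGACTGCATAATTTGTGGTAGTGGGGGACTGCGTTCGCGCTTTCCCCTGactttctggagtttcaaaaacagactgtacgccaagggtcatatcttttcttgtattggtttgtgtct

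CHM13 RAD21 had 103 contig peaks on 34 contigs, SA1 had 112 on 49 and SA2 had 109 on 49. RPE-1 RAD21 had 49 on 23 contigs, SA1 had 14 on 9 and SA2 had 26 on 15. So RAD21 was the longest of the 3 lists on the contigs in RPE-1 but the shortest in CHM13. In both lines, RAD21 had the most peaks on chr1-22 and chrX, with 73739 against 38153 for SA1 and 44374 for SA2 in CHM13. A peak of both lines was found on 22 contigs, of CHM13 only on 34, and of RPE-1 only on 1, chr1_KI270714v1_random, where RPE-1 RAD21 (35700-36096) and SA2 (35762-36077) overlapped.

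Peaks were concentrated on few contigs, as the plot of peaks per contig shows. The 10 contigs with most peaks held 228 of the 413. The first was chrUn_GL000226v1, a piece of alpha satellite of 15008 bp with 41 peaks, followed by chr1_KI270709v1_random with 29, chr17_GL000205v2_random with 28 and chrUn_KI270438v1 with 26. chrUn_GL000195v1 held 23, chr22_KI270733v1_random 19 and chrUn_GL000220v1 18. The list ended with chr16_KI270728v1_random and chrUn_GL000219v1, with 15 each, and chr9_KI270717v1_random with 14. Of these 10, only chr16_KI270728v1_random, the longest contig at 1872759 bp, had no RPE-1 peak, where CHM13 RAD21 had 7 peaks, SA2 5 and SA1 3. Outside these 10, a peak of all 6 lists was found on chr22_KI270731v1_random, whose 13 peaks included a locus of all 6 around 4586-5405.

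**Figure D1:**
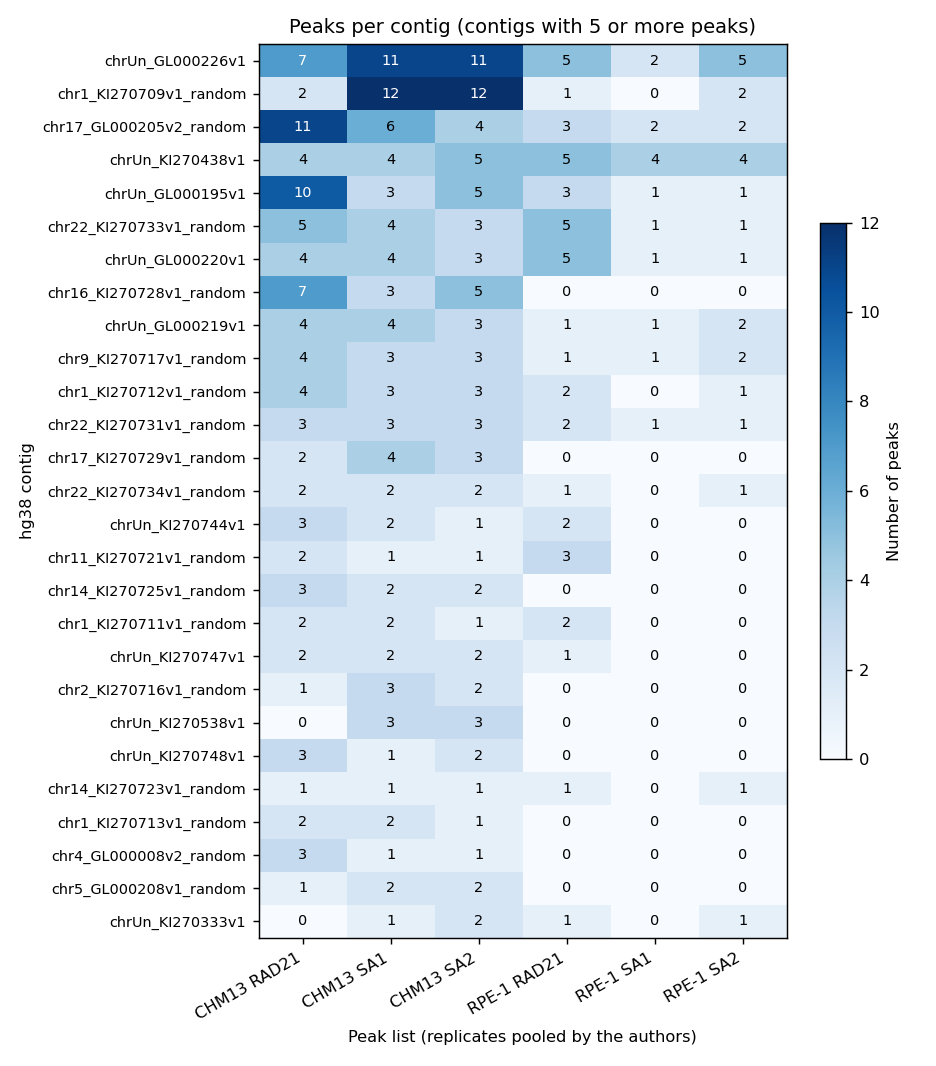
Number of peaks on each hg38 contig with 5 or more peaks (27 contigs, 350 peaks, one line each) in each of the 6 pooled lists; darker blue is more peaks. chr1_KI270709v1_random holds 12 SA1 and 12 SA2 peaks of CHM13 but 2 RAD21 peaks, whereas chr17_GL000205v2_random holds 11 RAD21 peaks and 6 and 4 SA peaks.

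Set against length without unknown bases (10.97 Mb of contigs), CHM13 peaks were sparser on the contigs than on chr1-22 and chrX. RAD21 had 9.39 peaks per Mb against 25.3, a ratio of 0.371 (95% interval 0.3025 to 0.4495, adjusted p = 2.78e-32, exact conditional test of 2 rates over 6 lists). SA2 had 9.93 against 15.2 (ratio 0.652, 0.535 to 0.786, exact adjusted p = 6.43e-06), and SA1 10.2 against 13.1 (ratio 0.779, 0.641 to 0.9375, exact adjusted p = 0.0111). The CHM13 SA1 density difference was lost without chr16_KI270728v1_random (ratio 0.885, exact adjusted p = 0.270). In RPE-1 only SA1 was sparser, with 1.28 against 3.68 per Mb (ratio 0.347, 0.190 to 0.582, exact adjusted p = 7.51e-06). By bases covered by peaks, with no test, the ratio was 0.5345 for RPE-1 SA1 and 0.926 for CHM13 SA1. RPE-1 RAD21 (ratio 0.870, 0.6435 to 1.15) and SA2 (1.08, 0.705 to 1.58) did not pass, with exact adjusted p = 0.462 and 0.682. All these tests treat peaks as independent counts. They cover counting error only, since the replicates were merged before deposit and the lists hold no read depth. The paper's reporting summary does give read numbers per library. A CHM13 RAD21 replicate had far fewer reads than the other CHM13 pull-downs, and the RPE-1 pull-downs also had fewer than those others. The effect of depth on the peak calls was not tested.

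**Figure D2:**
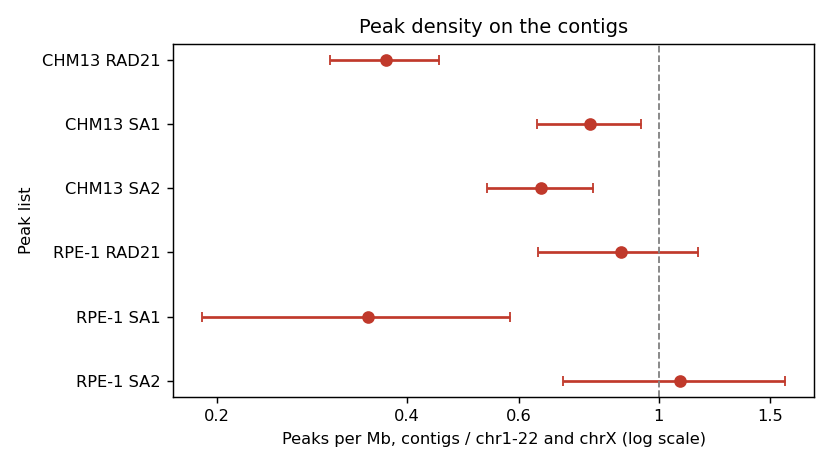
Ratio of peaks per Mb on the contigs to peaks per Mb on chr1-22 and chrX for each list (points, log axis) with 95% exact intervals (bars); the dashed line is equal density. The intervals of CHM13 RAD21, SA1 and SA2 and of RPE-1 SA1 lie below 1, and CHM13 RAD21 is at 0.371.

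Relative to the chromosomes, the lines differed in how many contig peaks each subunit had. CHM13 gave 103 of the 152 RAD21 contig peaks of both lines (67.8%) against 83.15% on chr1-22 and chrX (odds ratio 0.426, 0.3001 to 0.612, Fisher's exact test, adjusted p = 1.05e-05 over 3 subunits). For SA1 the order was the other way, 112 of 126 (88.9%) against 78.1% (odds ratio 2.245, 1.28 to 4.24, exact adjusted p = 0.00356). For SA2 CHM13 gave 109 of 135 (80.7%) against 87.4% (odds ratio 0.604, 0.390 to 0.966, exact adjusted p = 0.0264). That last difference did not pass without chrUn_GL000226v1 (odds ratio 0.672). Leaving out chrUn_KI270438v1 also ended it, and the highest adjusted p with 1 contig left out was 0.106. SA1 made up 14 of the 40 RPE-1 SA peaks on contigs (35.0%) but 62.6% on the chromosomes (odds ratio 0.321, 0.155 to 0.639, exact adjusted p = 0.000936), while in CHM13 the shares were 50.7% and 46.2% (odds ratio 1.195, 0.909 to 1.57, exact adjusted p = 0.199).

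Contig peaks were about as wide as other peaks. In CHM13 the median RAD21 width was 605 bp (724 on chr1-22 and chrX), the SA1 width 555.5 bp (613) and the SA2 width 538 bp (608). In RPE-1 the RAD21 median was 427 bp (443), the SA1 median 496 bp (397) and the SA2 median 380.5 bp (360). Thus CHM13 medians were below those of the chromosomes and the RPE-1 SA medians above them. The widest contig peak of each list lay on a named contig. In CHM13 these were a RAD21 peak of 2507 bp over U1 on chr1_KI270713v1_random (20174-22680), an SA1 peak of 4111 bp in ribosomal DNA on chr22_KI270733v1_random (121239-125349) and an SA2 peak of 2307 bp in a monomer-length repeat on chrUn_KI270587v1 (161-2467). In RPE-1 they were a RAD21 peak of 1813 bp on the AT-rich chrUn_KI270467v1 (2014-3826) and SA1 (109162-110581, 1420 bp) and SA2 (109180-110555, 1376 bp) peaks at the same place on chrUn_KI270438v1.

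The main difference between contigs and chromosomes lay in SA peaks without RAD21. In CHM13, 45 of 112 contig SA1 peaks (40.2%, 95% Wilson interval 31.6 to 49.4) overlapped no CHM13 RAD21 peak by even 1 base, against 5.41% on chr1-22 and chrX (odds ratio 11.75, 7.85 to 17.45, Fisher's exact test, adjusted p = 3.41e-27 over 4 lists). For CHM13 SA2 it was 44 of 109 (40.4%, 31.6 to 49.8) against 3.12% (odds ratio 20.99, 13.9 to 31.4, exact adjusted p = 3.80e-36). Leaving out any 1 of the 57 contigs kept the odds ratios between 9.42 and 12.9 for SA1 and between 16.7 and 22.4 for SA2. Where an overlap had to cover at least 50% of both peaks, the odds ratios fell to 4.04 for SA1 and 4.36 for SA2 (exact adjusted p = 5.27e-12 for both). In RPE-1 the share without RAD21 was 1 of 14 for SA1 (7.14%, 1.27 to 31.5), against 21.3% on the chromosomes (odds ratio 0.284, 0.00668 to 1.89, exact adjusted p = 0.435). For RPE-1 SA2 it was 4 of 26 (15.4%, 6.15 to 33.5) against 12% (odds ratio 1.33, 0.332 to 3.93, exact adjusted p = 0.546). Odds ratios as high as those of CHM13 at 1 shared base lay outside both RPE-1 intervals. The odds ratios differed between the lines by an exact test of homogeneity, chosen after the data were seen because a count fell under 5 (adjusted p = 4.80e-07 for SA1 and 6.34e-08 for SA2). At 50% overlap the RPE-1 odds ratios were 1.95 for SA1 and 2.22 for SA2, nearer to those of CHM13, and the difference between the lines was not tested at that setting.

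**Figure D3:**
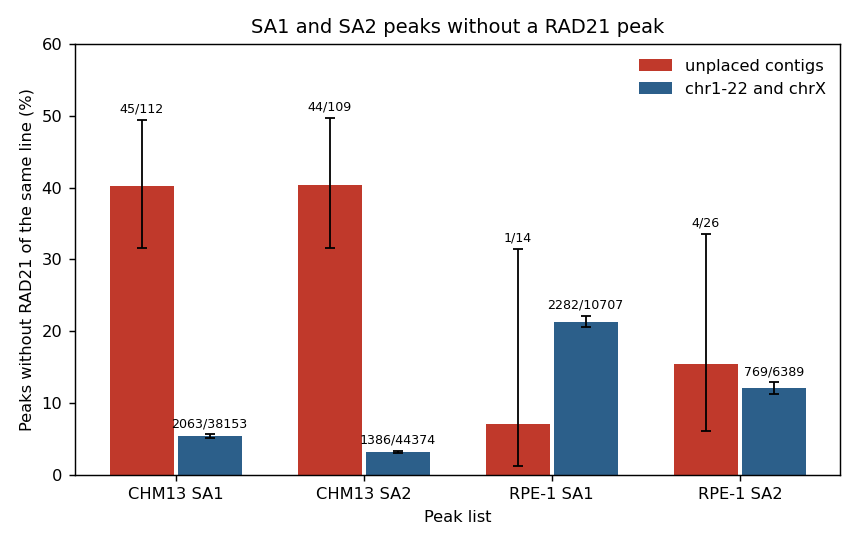
Share of SA1 and SA2 peaks that overlap no RAD21 peak of the same line (%), on unplaced contigs (red) and on chr1-22 and chrX (blue); bars are shares, whiskers 95% Wilson intervals, and the counts stand above them. The CHM13 contig shares are 40.2% and 40.4%, against 5.41% and 3.12% on the chromosomes, and the RPE-1 intervals of contigs and chromosomes overlap.

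By contig, 22 of the 55 contigs with a CHM13 SA1 or SA2 peak had no CHM13 RAD21 peak, and together they held 40 SA peaks. In RPE-1 none of the 15 contigs with an SA peak lacked RAD21, and 8 contigs had RAD21 with neither SA1 nor SA2. The 22 contigs ran from 1026 to 211173 bp, and 12 of them were under 10 kb. chrUn_KI270538v1 led them with 3 SA1 and 3 SA2 peaks, in sequence with 35 CENP-B boxes. The others with at least 2 SA peaks of CHM13 included chrUn_KI270333v1 with 3 and, with 2 each, chr22_KI270737v1_random, chr3_GL000221v1_random, chrUn_KI270336v1, chrUn_KI270337v1, chrUn_KI270419v1, chrUn_KI270466v1, chrUn_KI270467v1, chrUn_KI270587v1, chrUn_KI270742v1 and chrUn_KI270751v1. On chrUn_KI270742v1, chrUn_KI270751v1 and chr3_GL000221v1_random the peaks stood apart from one another, whereas on the short contigs SA1 and SA2 lay on top of each other.

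In CHM13, SA1 and SA2 often came together on contigs without RAD21, though less often than with it. Of the 45 CHM13 SA1 contig peaks without RAD21, 27 (60%) overlapped an SA2 peak, against 26.1% of such peaks on the chromosomes. Of the 44 SA2 peaks, 29 (65.9%) overlapped SA1, against 38.9%. Among CHM13 contig peaks with RAD21, 85.1% of SA1 peaks overlapped SA2 and 87.7% of SA2 peaks overlapped SA1. Merged over the 6 lists, the contig peaks made 168 loci. The loci of CHM13 SA1 with SA2 and nothing else numbered 22 (13.1%, against 0.645% of 77076 loci on the chromosomes), of CHM13 SA1 alone 18 (10.7% against 1.96%) and of CHM13 SA2 alone 15 (8.93% against 1.08%). The full CHM13 set without RPE-1 was seen at 26 loci (15.5% against 20.8%), CHM13 RAD21 alone at 26 (15.5% against 35.7%), and all 6 lists at 13 (7.74% against 6.18%).

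RAD21 without SA1 or SA2 was seen at 28 of 103 CHM13 contig peaks (27.2%), against 37.7% on the chromosomes (odds ratio 0.616, 0.384 to 0.963), and at 26 of 49 RPE-1 peaks (53.1%), against 38.5% (odds ratio 1.81, 0.990 to 3.32). Both had an exact adjusted p of 0.0399 and both calls were fragile. The CHM13 call was lost without any 1 of 9 contigs and the RPE-1 call without any 1 of 11, with adjusted p up to 0.123 and 0.129. On chrUn_GL000195v1, 6 of the 10 CHM13 RAD21 peaks were of this kind, for example 32215-33223 and 39287-40101. On chr17_GL000205v2_random, 5 of 11 were, among them 120822-121342 and 163116-164151.

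To see which sequence lay under these peaks, the 1 kb around each centre was put in a class. The classes were a monomer-length repeat (at least 50% identity to itself when shifted by the length of an alpha-satellite monomer), CATTC-rich (at least 10% of bases in CATTC or GAATG), AT-rich (GC under 30%) and other. The first 3 classes held 49 of the 112 CHM13 SA1 contig peaks, 22, 21 and 6, but 2.22%, 0.354% and 1.65% of SA1 peaks on the chromosomes. They held 23, 22 and 7 of the 109 SA2 peaks, against 1.26%, 0.268% and 1.46% on the chromosomes. Of the 103 CHM13 RAD21 peaks they held 10, 9 and 0 (9.71%, 8.74% and 0%), against 0.262%, 0.0651% and 0.991%. Of the 49 RPE-1 RAD21 peaks they held 5, 6 and 4 (10.2%, 12.2% and 8.16%), against 0.228%, 0.154% and 0.2075%. The contigs themselves are rich in these repeats. In windows of 2 kb, 100% of chrUn_GL000226v1 was in the monomer-length class and 71.4% of chrUn_KI270438v1 was CATTC-rich. Class shares over all contig sequence were not computed, so these values do not show enrichment of peaks over the contigs' own sequence. The classes and the tests by class were chosen after the data were seen.

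In CHM13, the share without RAD21 was not higher on contigs in the monomer-length and CATTC-rich classes, whereas in AT-rich and other sequence it was. Of CHM13 SA1 peaks in the monomer-length class, 13 of 22 on contigs lacked RAD21 (59.1%), fewer than 82.1% on the chromosomes (odds ratio 0.315, 0.122 to 0.851, Fisher's exact test, adjusted p = 0.0332 over all lists and classes). For SA2 it was 15 of 23 (65.2%) against 75.6% (exact adjusted p = 0.568). In CATTC-rich sequence 12 of 21 SA1 peaks (57.1%) and 13 of 22 SA2 peaks (59.1%) lacked RAD21, against 68.9% and 62.2% (exact adjusted p = 0.568 and 0.872, odds ratio intervals 0.214 to 1.76 and 0.318 to 2.53). In AT-rich sequence all 6 SA1 and all 7 SA2 contig peaks lacked RAD21, against 6.82% and 6.81% (exact adjusted p = 7.715e-07 and 1.555e-07), and these peaks came from few contigs. Outside the 3 classes 14 of 63 SA1 (22.2%) and 9 of 57 SA2 peaks (15.8%) lacked RAD21, against 3.37% and 1.97% (odds ratios 8.18, 4.16 to 15.1, and 9.34, 4.02 to 19.3, exact adjusted p = 1.555e-07 and 6.62e-06). In RPE-1, outside the 3 classes, 0 of 8 SA1 contig peaks lacked RAD21 against 20.4%, and 2 of 14 SA2 (14.3%) against 11.1%. The 1 AT-rich RPE-1 SA2 contig peak had RAD21, against 74.6% without it on the chromosomes. No RPE-1 class passed (exact adjusted p of 0.568 or more).

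**Figure D4:**
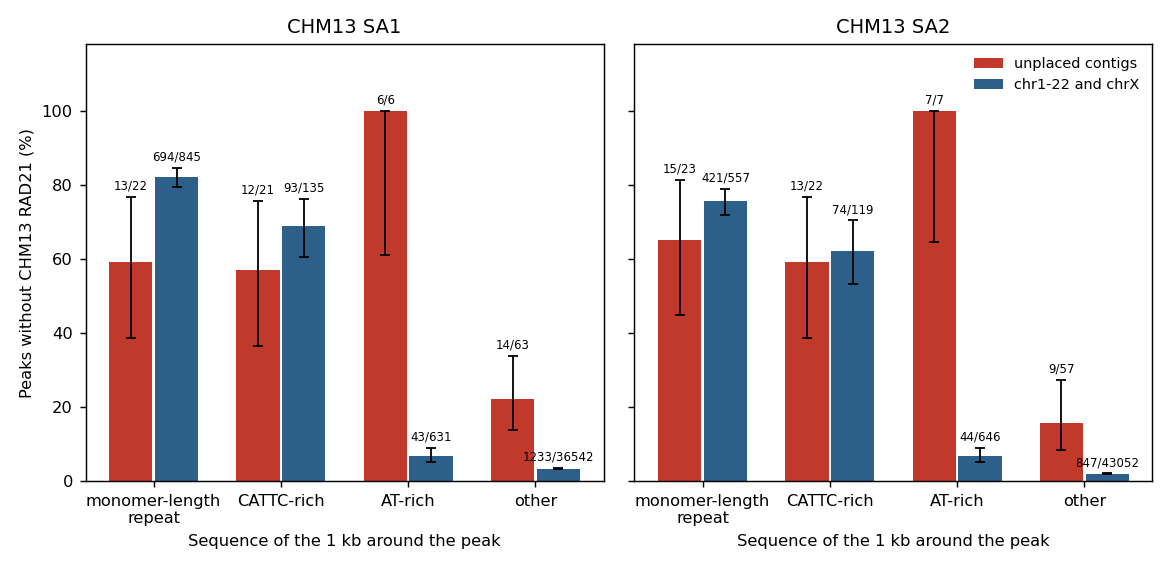
Share of CHM13 SA1 (left) and SA2 (right) peaks without a CHM13 RAD21 peak (%) by the sequence of the 1 kb around the peak, on contigs (red) and on chr1-22 and chrX (blue), with 95% Wilson intervals and counts. In the monomer-length and CATTC-rich classes both bars are high, and in the AT-rich and other classes the contig bars stand above those of the chromosomes.

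The CTCF core was found more often in CHM13 contig SA peaks with RAD21 than in those without. In the central 300 bases, 27 of 67 CHM13 SA1 contig peaks with RAD21 (40.3%) held the core, against 1 of 45 without RAD21 (2.22%). On the chromosomes the shares were 29.6% and 5.19%. For CHM13 SA2 the contig counts were 22 of 65 (33.85%) with RAD21 and 2 of 44 (4.55%) without, against 25.5% and 4.76% on the chromosomes. In RPE-1 just 1 SA1 and 4 SA2 contig peaks lacked RAD21. On the chromosomes the RPE-1 shares were 43.0% with RAD21 and 31.1% without for SA1, and 45.4% and 30.7% for SA2. In windows of 300 bp along all contigs, 2.84% held a match, and 2.16% along chr1-22 and chrX. The CENP-B box was found in the centres of 14.3% of CHM13 SA1 and 12.8% of SA2 contig peaks but 5.825% of RAD21 ones, against 3.32% of contig windows. On the chromosomes these shares were 2.35%, 1.31% and 0.269%, against 1.32% of windows. On chrUn_GL000226v1 alone, 11 SA1, 11 SA2 and 7 RAD21 peaks of CHM13 lay at loci that held a box. How far the contig difference rests on that contig was not tested. The stricter CTCF consensus was found in 2 of 103 CHM13 RAD21, 1 of 112 SA1 and 1 of 109 SA2 contig centres (1.94%, 0.893% and 0.917%), against 4.86%, 8.64% and 7.36% on the chromosomes. In RPE-1 no contig centre held it, against 14.9% to 16.8% on the chromosomes. A match is a description of letters in a window, and no test was made of it.

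Among contigs of alpha satellite, chrUn_GL000226v1 held most peaks. The contig repeated at the monomer length (68.2% identity) and more closely at 2728 bases (99.1% identity), and it held 44 CENP-B boxes. CHM13 had 11 SA1, 11 SA2 and 7 RAD21 peaks on it and RPE-1 had 2, 5 and 5, which merged into 11 loci over 44.2% of its length. All 11 loci held CHM13 SA1 and SA2, 7 held CHM13 RAD21 and 5 held RPE-1 RAD21. The locus 4992-6000 was in all 6 lists, and 8057-8333, 10791-11202, 12311-12741 and 13140-14105 were in CHM13 SA1 and SA2 alone. Each of the 11 loci held 1 to 3 CENP-B boxes, with or without RAD21. Other contigs mostly of monomer-length windows held far fewer peaks. chr2_KI270715v1_random (96.25% of windows, 386 CENP-B boxes) held 1 and chr2_KI270716v1_random (86.8%, 314 boxes) held 6. chr22_KI270739v1_random (75%, 42 boxes) held no peak.

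The repeat of 2728 bases allowed near-identical copies to be set side by side. The locus in all 6 lists had its centre at base 39 of that unit. The SA-only loci 8057-8333, 10791-11202 and 13140-14105 had theirs nearby, at bases 10, 84 and 2710 (close to the end of the unit). Likewise 4035-4557, with CHM13 RAD21, was centred at base 1567 and 12311-12741, without it, at base 1613. So these copies at nearly the same place in the unit differed in whether RAD21 was called. The centres are those of loci merged over the 6 lists, not of the RAD21 peaks themselves. Another pair did not differ, since 948-1277 (base 1112) and 14521-14897 (base 1068) were in the same 5 lists with RAD21 of both lines. Of the 50-base words of this contig, 96.9% also occurred on chr1-22, X or Y, nearly all on chromosome 14 (96.8%). Such a word has more than 1 exact place in the reference. Whether whole reads or read pairs do was not measured, and any effect on the calls was not tested.

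CATTC-based satellite gave opposite patterns on a pair of contigs with many peaks. chrUn_KI270438v1, with 26.2% of its bases in CATTC or GAATG, carried 4 loci that were in all 6 lists, around 103996-105074, 109188-110616, 111328-111744 and 112064-112425 of CHM13 RAD21. At these places 4 SA1 and 4 SA2 peaks of CHM13 and 4 and 4 of RPE-1 all overlapped RAD21 of their own line. The only other peak was an SA2 peak of CHM13 at 21753-22203. On chr1_KI270709v1_random, by contrast, where 7.52% of bases were in these words, 10 of 12 SA1 and 10 of 12 SA2 peaks of CHM13 had no RAD21. All but the SA1 peak at 22357-22896 lay in the first 17527 bases, and CHM13 RAD21 was called there at 7217-7567 and 13451-14002 only. RPE-1 had 1 RAD21 peak on it (7222-7554), 2 SA2 peaks and no SA1 peak. At most 2.42% of the 50-base words under a peak at the chrUn_KI270438v1 loci of all 6 lists occurred on the chromosomes, whereas 47.35% to 100% did under the CATTC-rich peaks of chr1_KI270709v1_random. Other contigs rich in CATTC or GAATG held fewer peaks. Among them were chr17_KI270729v1_random (25.15% of bases) with 9, chrUn_GL000216v2 (21.7%) with 3 and chr22_KI270737v1_random (21.8%) with 2.

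The AT-rich contigs formed a group. chrUn_KI270333v1, chrUn_KI270336v1, chrUn_KI270337v1, chrUn_KI270466v1 and chrUn_KI270467v1 are 1026 to 3920 bp long with a GC content of 22.5% to 25.5%, and each matched itself best at a lag of 42 bases, with 64.1% to 85.2% identity. A 42-base AT-rich unit is the form of human satellite 1. Peaks of any list covered 50.0% to 93.3% of each contig, as in chrUn_KI270337v1 with SA1 at 6-920 and SA2 at 20-915, and no CHM13 RAD21 peak lay on any of the 5. In RPE-1, RAD21 was called on 4 of them, at 28-889 of chrUn_KI270337v1, 130-633 of chrUn_KI270466v1, 2014-3826 of chrUn_KI270467v1 and 873-1237 of chrUn_KI270333v1. RPE-1 SA2 was called on the last of these only (878-1201) and RPE-1 SA1 on none. So the RAD21 calls on these contigs came from RPE-1 alone, where the antibody also differed.

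Ribosomal DNA lay on chr22_KI270733v1_random and chrUn_GL000220v1. An exact copy of the 5.8S rRNA, which is cut from the same precursor as 18S and 28S rRNA, was found at 128877-129029 and 173956-174108 on the first and at 112025-112177 and 155997-156149 on the second, all on the plus strand. The copies were 45.1 kb and 43.97 kb apart. No peak of any list overlapped a 5.8S copy. A RAD21 peak stood 7.2 to 7.7 kb upstream in all 4 units and in both lines, for example 104352-104764 (CHM13) and 104364-104730 (RPE-1). These CHM13 peaks were 383 to 479 bp wide. CHM13 SA1 was called at the same place in 4 of 4 units, but as peaks of 3400 to 4111 bp that ran on towards the 5.8S copy, with a GC content of 76.0% to 77.1%. CHM13 SA2 was called there in 1 of 4 units (148305-148644), and RPE-1 SA1 and SA2 in 0 of 4.

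Other peaks of these contigs lay on either side of the 5.8S copies. In front of the first copy on each contig, all 6 lists shared a locus 18 to 19.5 kb upstream, and RAD21 of both lines and CHM13 SA2 shared one about 15 kb upstream with no SA1. CHM13 SA1 alone was also called at 133899-136091 on chr22_KI270733v1_random, downstream of the first copy, and at 153202-155020 on chrUn_GL000220v1, 0.977 to 2.80 kb upstream of the second, and RPE-1 RAD21 alone at 134047-134465 on the latter. Words of these contigs occurred on chromosome 21 for 78.8% and 82.0%.

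**Figure D5:**
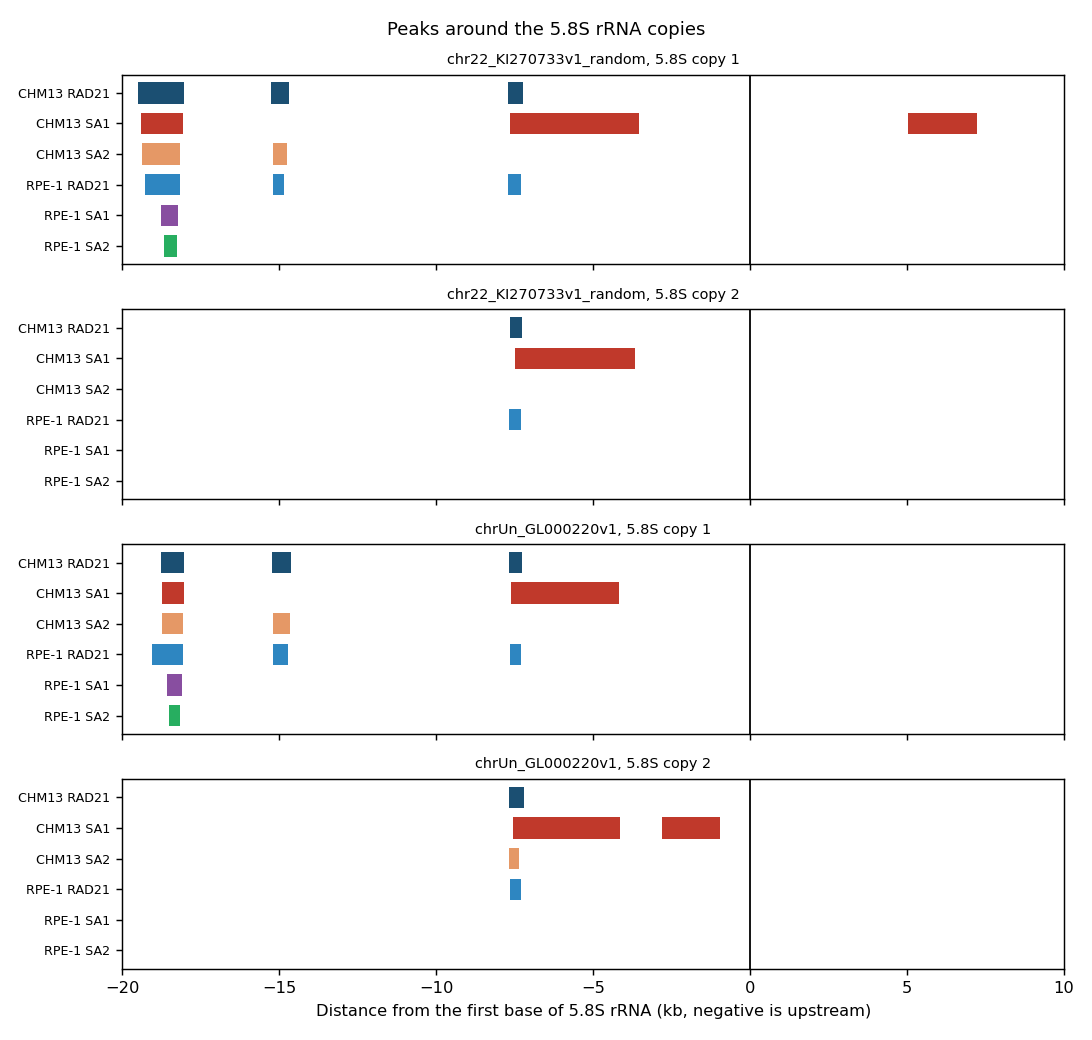
Peaks of the 6 lists (bars, one line per list) around the 4 exact 5.8S rRNA copies on 2 contigs, against the distance from the first base of 5.8S (kb, negative is upstream; vertical line at 0). Narrow RAD21 peaks of both lines stand between 7.2 and 7.7 kb upstream in each unit, and the CHM13 SA1 bars there are 3400 to 4111 bp wide.

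Few other genes could be placed by exact matching. A copy had to match the whole spliced transcript without a break, so genes with introns were missed unless the copy lacked them. Among 274 GENCODE transcripts with at least 50% of their words on a contig, 51 genes had an exact copy on a contig with a peak, and 15 had one under a peak, each in 1 list only. These 15 were not separate places, because several gene names matched the same copy. The copy of U1, the small nuclear RNA that recognises the start of introns, was at 21861-22024 of chr1_KI270713v1_random on the minus strand. It matched RNU1-1, RNU1-2, RNU1-3, RNU1-4, RNVU1-18 and RNVU1-29 and the pseudogenes RNU1-27P and RNU1-28P, whose sequences are the same here, so which of them it stands for cannot be told. CHM13 RAD21 covered it, CHM13 SA1 was called beside it (20391-21356), and neither SA2 nor RPE-1 was called there. Unnamed transcripts made up the rest. On chrUn_GL000220v1, lncRNA entries shared the copy at 153803-154725, under the CHM13 SA1 peak 153202-155020. Other entries shared the copy at 133778-134256, under RPE-1 RAD21. A pseudogene at 79239-79340 of chr14_KI270725v1_random lay under CHM13 RAD21. Further exact copies of the lncRNA lay under no peak, at 109831-110753 of chrUn_GL000220v1 and at 126684-127606 and 171765-172687 of chr22_KI270733v1_random.

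Of 35116 RefSeq promoters (hg38), 16 had an exact copy on a contig with a peak and none lay under a peak. One was the promoter of H19, an imprinted noncoding RNA made from the maternal chromosome, at 56399-56698 of chr11_KI270721v1_random on the minus strand; it was singled out after its peaks were seen. RPE-1 RAD21 was called on both sides of it, 1.57 to 1.96 kb upstream of the start site (58015-58412) and 1.16 to 1.49 kb downstream (54954-55289). CHM13 RAD21 was called at neither place. Both lines had RAD21 35.4 to 36.2 kb upstream, with CHM13 SA1 and SA2. CHM13 RAD21 alone was called 31.8 to 32.2 kb downstream, at 24267-24601. Each of these stretches also occurs whole on chromosome 11. Around H19 there the lists had RPE-1 RAD21 at 2002691-2003146 and 1999768-2000094, no CHM13 peak at either, and peaks of both lines around 2036721-2037528, where RPE-1 SA1 was called too. The chromosome also had CHM13 RAD21 (1953356-1953979), SA1 and SA2 peaks 47.3 to 47.9 kb downstream of the start site, and the contig had no peak at that distance.

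Sharing between the lines differed from the chromosomes in 4 of the 6 lists, being lower for RPE-1 RAD21 and CHM13 SA1 and higher for CHM13 RAD21 and SA2. Of the RPE-1 RAD21 contig peaks, 40 of 49 (81.6%) overlapped CHM13 RAD21, against 97.1% on the chromosomes (odds ratio 0.132, 0.0627 to 0.312, Fisher's exact test, adjusted p = 4.57e-05 over 6 lists). The 9 that did not were 4 on AT-rich contigs, 2 beside H19, and 1 each on chrUn_GL000195v1, chrUn_GL000220v1 and chr1_KI270714v1_random. RPE-1 SA1 peaks were shared in 14 of 14 cases (97.5% on the chromosomes, exact adjusted p = 1) and SA2 peaks in 25 of 26 (96.2% against 98.5%, exact adjusted p = 0.397). In the other direction 39 of 103 CHM13 RAD21 peaks (37.9%) overlapped RPE-1 RAD21 against 19.5% (odds ratio 2.52, exact adjusted p = 4.57e-05), 25 of 109 SA2 peaks (22.9%) against 14.2% (odds ratio 1.81, exact adjusted p = 0.0191) and 14 of 112 SA1 peaks (12.5%) against 27.2% (odds ratio 0.3815, exact adjusted p = 0.000516). The SA2 difference was lost without any 1 of 5 contigs, chrUn_GL000226v1, chr17_GL000205v2_random, chrUn_KI270438v1, chrUn_GL000219v1 or chr9_KI270717v1_random. The 3 CHM13 comparisons depend on how many peaks RPE-1 has on the contigs. With an overlap of at least 50% of both peaks required, RPE-1 RAD21 turned to an odds ratio of 1.596 and no longer passed, and the CHM13 SA1 difference was lost (0.6257). At that setting sharing of RPE-1 SA1 and SA2 was higher on contigs (odds ratios 8.03 and 2.53, Fisher's exact test, adjusted p = 0.0471 and 0.0473).

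Some peaks lay close to a contig end. In CHM13, 13 of 109 SA2 peaks lay within 200 bp of a contig end, as did 12 of 112 SA1 and 4 of 103 RAD21 peaks. In RPE-1 it was 6 of 49 RAD21, 2 of 26 SA2 and 1 of 14 SA1 peaks, and no peak ran past an end. Median widths of CHM13 SA1 contig peaks were 574 bp with RAD21 and 514 bp without, and of SA2 593 bp and 458.5 bp. The median GC content was 40.1% and 36.9% for SA1 and 40.2% and 36.3% for SA2. Peaks with and without RAD21 both held mostly words that also occur on the chromosomes, with medians of 90.1% and 75.3% of words for SA1 and 90.7% and 77.4% for SA2.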

How the data were processed

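ChIP-seq of RAD21, SA1 and SA2 in CHM13 (3 replicates each) and RPE-1 (2 each) was analysed from 6 peak lists on hg38. Per the paper's methods the authors aligned reads with bwa mem, dropped secondary and supplementary alignments, called peaks with macs2, merged replicates and kept loci found in at least 2 of them, so a locus had to appear in 2 of 3 CHM13 but in both RPE-1 replicates. Those steps are described there for the CHM13 assembly, and hg38 is given by the submitters' processing notes. No mapping-quality filter is named, so reads of repeats may sit at any matching copy. The macs2 settings given there name no input control, and whether the contig peaks exceed input was not tested. Deposited intervals are used as start and end, and the deposited score column is 0 in every line. So peak height, read depth and replicate spread were not used. Lists on the CHM13 assembly (6 of 12 files) were not used here.

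Overlap meant at least 1 shared base. Shares were compared by two-sided Fisher's exact tests with conditional odds ratios, densities by exact tests of 2 Poisson rates, both with Benjamini-Hochberg adjustment within each family and a threshold of 0.05 (SciPy 1.17.1, NumPy 2.4.6). Peaks are not replicates, and intervals cover counting error only. Words of 50 bases were matched exactly to chr1-22, X and Y and to GENCODE 44 transcripts. Functions were tested on simulated lists. Contigs named were the 10 with most peaks, up to 12 with SA1 or SA2 and no RAD21 of the line, and those in all 6 lists. Peaks named were the widest of each list and those of named contigs, and genes named were those under a contig peak and rRNA genes. H19, which lies under none, was added after its values were seen. The members, lists and rules were chosen with earlier results of these data known. Promoters and their exact copies came from RefSeq.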

Additional observations from a re-analysis of the deposited data

Results flagged for a closer look

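The contig odds ratio of peaks without RAD21 differed between the cell lines. For SA1 it was 11.75 in CHM13 and 0.284 in RPE-1, and for SA2 20.99 in CHM13 and 1.33 in RPE-1, with an exact test of homogeneity chosen after the data were seen (adjusted p = 4.80e-07 and 6.34e-08). With overlap of at least 50% of both peaks the values came closer, 4.038 against 1.946 for SA1 and 4.358 against 2.224 for SA2, and with RAD21 of either line RPE-1 SA2 was 8.469 against 18.47 in CHM13. The difference between the lines was not tested under these settings. The RPE-1 values rest on 14 and 26 contig peaks. The lines also differ in RAD21 antibody, sonicator, read depth and number of replicates, and fly chromatin was added as a control in CHM13. These cannot be told apart from the cell line.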

How the results depend on the processing

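No paired analysis was possible because each list pools the replicates of its group and carries no replicate number, and for the same reason no replicate could be left out. Of 205 alternative values, 164 kept their direction and side of the threshold or moved little. The CHM13 shares of SA1 and SA2 peaks without RAD21 stayed higher on contigs under each of these settings, which included peaks outside the 3 repeat classes. With overlap of at least 50% of both peaks their odds ratios fell from 11.75 to 4.038 (SA1) and from 20.99 to 4.358 (SA2). Tested by class, apart from these settings, the shares were not higher in the monomer-length class (odds ratios 0.315 for SA1 and 0.606 for SA2). Nor were they in the CATTC-rich class (0.604 and 0.879). The cause was not tested for the changes below, which are contig to chromosome ratios or odds ratios. With overlap of at least 50% of both peaks, RPE-1 SA1 without RAD21 turned to 1.946 and SA2 to 2.224, neither passing. Sharing with the other line became 0.6257 (CHM13 SA1, not passing), 1.596 (RPE-1 RAD21, not passing), 8.031 (RPE-1 SA1, passing) and 2.526 (RPE-1 SA2, passing). Counting peaks within 1 kb as overlapping gave 0.9618 for RPE-1 SA2 without RAD21 and, for RAD21 with neither SA, 0.6523 (CHM13) and 1.704 (RPE-1), neither passing. Without the contig with most peaks, RPE-1 SA2 density was 0.8733, the SA2 ratio of the lines 0.6719, CHM13 SA2 sharing 1.556 and CHM13 RAD21 alone 0.6793. On chrUn contigs only, densities were 0.9519 (CHM13 SA1), 0.8033 (CHM13 SA2), 1.216 (RPE-1 RAD21) and 0.5654 (RPE-1 SA1), the ratios of the lines 1.684 (SA1) and 0.5451 (SA2), the RPE-1 SA1 to SA2 ratio 0.3836, CHM13 SA1 sharing 0.5341, and RAD21 alone 0.6702 (CHM13) and 1.721 (RPE-1). On random contigs only, densities were 0.6453 (RPE-1 RAD21, passing) and 0.823 (RPE-1 SA2), the SA2 ratio of the lines 0.6719, CHM13 SA2 sharing 1.483, and RAD21 alone 0.5755 and 1.918. On contigs of at least 50 kb, densities were 0.6874 (RPE-1 RAD21, passing) and 0.7348 (RPE-1 SA2), the SA2 ratio of the lines 0.7379, the RPE-1 SA1 to SA2 ratio 0.4103, CHM13 SA2 sharing 1.471, and RAD21 alone 0.7149 and 2.131. Joining peaks closer than 1 kb gave 0.9177 (RPE-1 SA2 density) and 0.6663 (CHM13 RAD21 alone). Without peaks within 200 bp of an end these were 0.9967 and 0.6187, and RPE-1 RAD21 alone was 1.675. Where every contig peak was shared, the odds ratio is infinite and was computed with 0.5 added to each cell, which puts RPE-1 SA1 sharing (14 of 14) at 0.7516 although its share was above that of the chromosomes. With RAD21 of either line, RPE-1 SA2 without RAD21 was 8.469 (not passing). By bases covered, the ratios were 0.2886 (CHM13 RAD21), 0.926 (CHM13 SA1), 0.6091 (CHM13 SA2), 0.9347 (RPE-1 RAD21), 0.5345 (RPE-1 SA1) and 1.411 (RPE-1 SA2), with no test.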
